A study of Mus musculus with 5 samples.

Results

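The genes described here are 9 neighbours near the distal end of mouse chromosome 4, in map order Tnfrsf14, Gnb1, Nadk, Cdk11b, Ssu72, Atad3a, Dvl1, Noc2l and Samd11. They were chosen by symbol, and all 9 were found among the 11352 genes of the authors' deposited table. Tnfrsf14, Gnb1 and Samd11 had been picked because their values differed between the groups, and the other 6 because they lie near them, so the differences below are a description of the chosen genes. The comparison asks whether genes of 1 stretch of chromosome differ together between the groups.

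The RNA came from sorted mouse haematopoietic stem and progenitor cells (HSPCs) that carried KIT and SCA1 but neither lineage markers nor CD135. One group was Cux1-low (2 libraries, genotype Cux1-knockdown), and the other was Cux1-low;NrasG12D (3 libraries, genotype Cux1-knockdown;NrasG12D), called the NrasG12D libraries below. The Cux1 gene encodes a transcription factor with a homeodomain, and NrasG12D encodes an activated, oncogenic NRAS. All mice were given doxycycline and pI:C (a double-stranded RNA made synthetically) for 4 weeks, so the knockdown and both agents were common to all 5 libraries. The labels used here give no strain, age or sex, do not say how the knockdown or the Nras allele was driven, and do not tell which libraries, if any, share an animal, so every error given measures the spread between these samples, which may be technical. Neither wild-type cells nor cells with NrasG12D alone were analysed here. Values in a series are given for Cux1-low libraries 1 and 2 and then, after "against", for NrasG12D libraries 1, 2 and 3.

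GNB1 is a beta subunit of heterotrimeric G proteins, which carry signals from G protein-coupled receptors: the beta and gamma subunits leave the receptor as a pair and act on ion channels, phospholipase C beta and a PI3-kinase. TNFRSF14, also called HVEM, is a receptor of the TNF receptor superfamily on blood cells that binds LIGHT, lymphotoxin alpha, BTLA and CD160. The remaining genes serve general cell functions: NADK makes NADP from NAD, CDK11B is a kinase that works with L-type cyclins in transcription and splicing, and SSU72 is a phosphatase of the RNA polymerase II tail. ATAD3A is an ATPase of the mitochondrial inner membrane, DVL1 passes on WNT signals, NOC2L takes part in ribosome assembly, and SAMD11 is a sterile alpha motif protein best known from photoreceptors.

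The libraries held 16489711 to 20262498 reads over the listed genes, and the values used are the authors' normalized CPM, in which 1 read was worth 0.0481 to 0.0608. Cux1 (chromosome 5) had 306 and 281 normalized CPM against 311, 279 and 307, and Nras (chromosome 3) had 144 and 115 against 126, 124 and 113. Both groups carry the knockdown and a total level does not separate the alleles, so these values check neither. NrasG12D library 3 stood apart from libraries 1 and 2: on the first principal component (73.8% of the variance) it lay at -4.16, against 29.1 and 38.0 for those and -32.8 and -30.1 for the Cux1-low libraries. Counts of calls and the named test results are therefore also given without library 3, in a fit in which 37.4% of all genes passed (18% higher and 19.4% lower). All 10 HSPC markers were listed, and their summed level was 3659 to 3787 in the Cux1-low and 1576 to 2746 in the NrasG12D libraries. No sequencing batch is given in the labels.

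Gnb1 (chr4:155491361-155559269, plus strand, mm10) was the most abundant of the genes that differed. Its level was 263 and 249 normalized CPM against 573, 558 and 594. The groups lay far apart and the libraries within each group lay close together, with library 3 the highest. The means were 256 ± 9.73 (SD, n = 2) and 575 ± 18.2 (SD, n = 3), a ratio of 2.25. On the log2(normalized CPM + 1) scale, on which all log2 fold changes here are given, the difference was 1.16 (SE 0.10, limma).

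Tnfrsf14 (chr4:154921933-154928563, minus strand) had 5.05 and 3.42 normalized CPM against 37.7, 52.1 and 24.97. The 3 NrasG12D values lay above both Cux1-low values, but they spread more widely than those of Gnb1, and library 3 was the lowest. The means were 4.23 ± 1.15 (SD, n = 2) and 38.3 ± 13.6 (SD, n = 3), a ratio of 9.04, and the log2 fold change was 2.87 (SE 0.31, limma).

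Samd11 (chr4:156246966-156255657, minus strand) was barely present in Cux1-low cells, at 0.441 and 0.433 normalized CPM, which is 9 reads in each when computed from the value of 1 read. Its NrasG12D levels were 4.56, 6.79 and 5.16, from 89, 119 and 85 reads. The groups did not overlap, and library 3 lay between the other NrasG12D libraries. The deposited table lists only genes above 1 in at least 3 of the 5 libraries. A gene under 1 in both Cux1-low libraries is therefore listed only if all 3 NrasG12D libraries exceed 1. For Samd11 the lack of overlap was thus fixed by that filter, and nothing is read from it. The means were 0.437 ± 0.00565 (SD, n = 2) and 5.51 ± 1.15 (SD, n = 3), a ratio of 12.6. That ratio rests on few reads in the Cux1-low group. The small Cux1-low SD comes from equal counts of 9 reads and understates the error of counting so few. The log2 fold change was 2.16 (SE 0.25, limma) and 3.36 with a pseudocount of 0.1 in place of 1.

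The promoters of these 3 genes are shown because each gene was higher in all 3 NrasG12D libraries. RefSeq and GENCODE starts can differ: the gene spans above are GENCODE's, and the Tnfrsf14 and Samd11 windows, placed on the RefSeq start, lie within those spans. They are the parts of the 250 bases before the RefSeq start (GRCm38.p6, which is mm10) that lie outside every annotated exon, 5′ to 3′ on the gene's strand, with each CG dinucleotide in capitals.
Tnfrsf14 (chr4:154928203-154928327, minus strand): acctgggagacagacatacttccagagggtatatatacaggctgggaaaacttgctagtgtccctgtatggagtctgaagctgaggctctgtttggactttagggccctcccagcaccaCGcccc
Gnb1 (chr4:155491111-155491360, plus strand): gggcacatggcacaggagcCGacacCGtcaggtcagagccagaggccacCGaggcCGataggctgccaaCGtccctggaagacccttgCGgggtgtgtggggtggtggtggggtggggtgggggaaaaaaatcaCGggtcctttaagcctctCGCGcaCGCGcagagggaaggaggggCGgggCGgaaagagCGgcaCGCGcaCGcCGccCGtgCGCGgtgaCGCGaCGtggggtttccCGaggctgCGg
Samd11 (chr4:156255353-156255567, minus strand): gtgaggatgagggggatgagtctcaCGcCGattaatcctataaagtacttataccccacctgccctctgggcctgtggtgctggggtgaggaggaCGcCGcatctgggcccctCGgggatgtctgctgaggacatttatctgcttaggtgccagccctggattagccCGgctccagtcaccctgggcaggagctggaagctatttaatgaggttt

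Over the full 250 bases, the Gnb1 promoter held 26 CG dinucleotides, against 2 for Tnfrsf14 and 8 for Samd11. The median of 9020 listed genes with a RefSeq promoter was 16. Among the neighbours, the same window held 26 in Dvl1, 24 in Noc2l, 35 in Cdk11b, 10 in Ssu72 and 4 in Nadk. Of 7 motifs searched on both strands (ATCGAT and ATCAAT as CUX1 cores, TGANTCA for AP-1, CCGGAAGT for ETS factors, GAANNTTC for heat shock factors, TGACGTCA for CREB and TATAAA), the 3 windows held 1 match, a TATAAA from 187 to 182 bases before the Samd11 start. Of the listed genes' promoters, 5.80% held TATAAA, 0.676% ATCGAT, 3.46% ATCAAT, 4.14% TGANTCA, 6.55% CCGGAAGT, 4.96% GAANNTTC and 2.79% TGACGTCA.

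None of the 6 neighbours passed the test, and their ratios lay between 0.998 and 1.23. Noc2l (chr4:156236010-156247616, plus strand) had 440.3 and 459 normalized CPM against 460.4, 432 and 454. The groups overlapped and the means stood in a ratio of 0.998, with a log2 fold change of 0.00 to 2 decimals (SE 0.10, limma). Noc2l and Samd11 are convergent genes whose 3′ ends overlap by 651 bases, of which 598 are exonic in both. The kit named in the labels does not mark strand, so reads in that overlap could not be assigned with certainty, and Samd11 held 9 to 119 reads beside 7473 to 9536 for Noc2l. The lower gene of the pair differed between the groups while the higher one stayed within its spread between libraries.

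Nadk (chr4:155562378-155591001, plus strand) begins 3108 bases after the end of Gnb1 on the same strand. Its level was 212 and 246 normalized CPM against 257, 257 and 237, and the groups overlapped. The ratio of means was 1.09, with log2 fold change 0.13 (SE 0.11, limma). The gene next to Gnb1 thus did not show the ratio of 2.25 found at Gnb1.

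Dvl1 (chr4:155847402-155859303, plus strand) had 98.8 and 104 normalized CPM against 107, 99.5 and 98.6 (log2 fold change 0.01, SE 0.10, limma). Ssu72 (chr4:155704800-155733879, plus strand) had 79.0 and 80.5 against 88.6, 84.5 and 73.6 (log2 fold change 0.04, SE 0.12, limma). For both genes the groups overlapped, with the lowest value in NrasG12D library 3. Ssu72 shares 407 exonic bases and Dvl1 36 with opposite-strand genes that are not listed, and Samd11 shares 426 with a further antisense gene that is not listed, so their reads carry the same uncertainty.

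Atad3a (chr4:155740641-155761093, minus strand) and Cdk11b (chr4:155624854-155649938, plus strand) were the neighbours with the largest log2 fold changes. Atad3a had 144 and 163 normalized CPM against 202, 187 and 179.9, with a ratio of means of 1.23 (log2 fold change 0.30, SE 0.11, limma). Cdk11b had 84.3 and 96.8 against 108, 118 and 105, with a ratio of 1.22 (log2 fold change 0.29, SE 0.12, limma). In both genes every NrasG12D library lay above both Cux1-low libraries, by a margin close to the spread within a group. NrasG12D above Cux1-low without overlap was found in 26.5% of all listed genes.

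**Figure D1:**
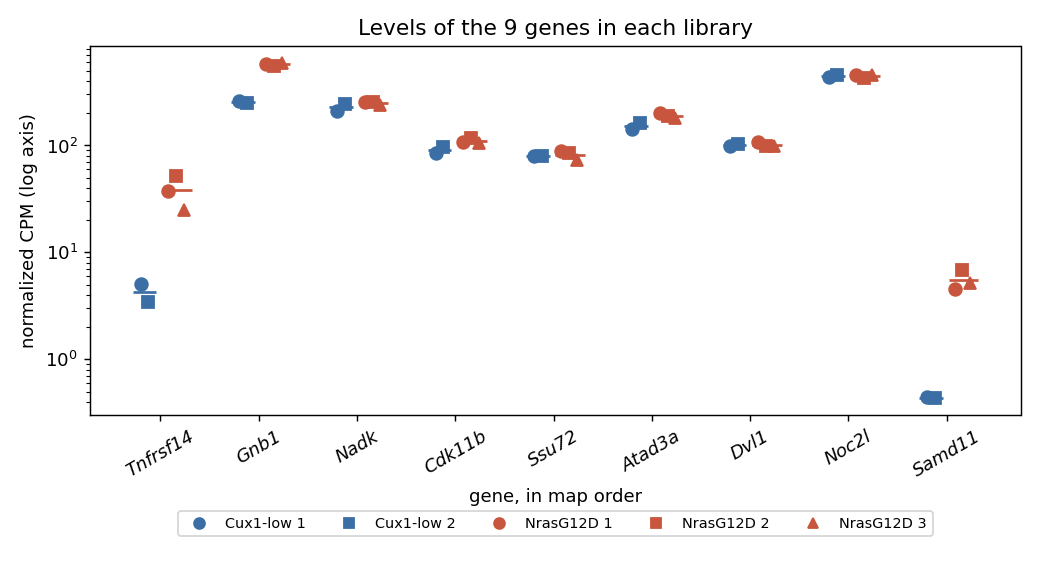
Normalized CPM (log axis) of the 9 genes in map order, with 1 symbol per library and a line at each group mean (Cux1-low blue, n = 2; NrasG12D red, n = 3). The groups stand clear of one another at Tnfrsf14, Gnb1 and Samd11, while Nadk, Ssu72, Dvl1 and Noc2l overlap.

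Of the 9 genes, 3 passed limma's threshold (adjusted p under 0.05), all higher in NrasG12D, against 1.13% of all 11352 genes (128 called, 0.255% higher and 0.872% lower). The table was used to choose them, so nothing is read from that count. In the authors' deposited table the same 3 passed at an adjusted p under 0.05 and the 6 neighbours did not, against 16.1% of all genes there (6.97% higher and 9.14% lower). The limma calls rested on few libraries. Each of the 3 genes lost its call when either Cux1-low library, or NrasG12D library 1, was left out, and 3 genes of the whole table passed in each case. Samd11 also lost its call without NrasG12D library 2. The log2 fold changes themselves stayed between 1.13 and 1.20 for Gnb1, 2.62 and 3.13 for Tnfrsf14, and 2.03 and 2.27 for Samd11 over the 5 fits that each left out 1 library. Without NrasG12D library 3 they were 1.14 for Gnb1, 3.13 for Tnfrsf14 and 2.20 for Samd11, and all 3 kept their call in that fit. Atad3a also passed there, with a log2 fold change of 0.34 (limma adjusted p = 0.0411, 0.0411 to 0.533 over 12 alternatives).

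The place of library 3 differed among the 3 genes. On a linear scale of normalized CPM that runs from 0 (mean of the Cux1-low pair) to 1 (mean of the other NrasG12D pair), library 3 lay at 1.09 for Gnb1, 0.902 for Samd11 and 0.510 for Tnfrsf14. Over the 1232 listed genes in which those means differed at least 2-fold, the median position was 0.493, and 3.003% lay at or above the position of Gnb1. Those genes were taken without regard to library 3, but Gnb1, Samd11 and Tnfrsf14 were picked by their values in the whole comparison. The share is therefore no measure of how unusual Gnb1 is. In library 3, Gnb1 and Samd11 were near their level in the other NrasG12D libraries, while Tnfrsf14 lay near the middle.

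Some marker sums for other cell types differed between the groups. The B cell markers (7 of 9 listed, Pax5 and Ms4a1 not listed) summed to 55.98 and 74.5 normalized CPM in the Cux1-low pair, 231 and 463 in NrasG12D libraries 1 and 2, and 58.0 in library 3. The erythroid markers (7 of 9 listed, Hbb-bt and Hba-a1 not listed) summed to 4425 and 4859 against 7631, 10608 and 5374, and all 7 were higher in every NrasG12D library. The NrasG12D libraries stood in the same order for these markers as for Tnfrsf14. That was also their order on the first principal component, and the HSPC and megakaryocyte marker sums ran in the reverse order. The granulocyte and monocyte markers (7 of 9 listed, S100a8 and S100a9 not listed) summed to 7739 and 10857 against 19779, 13212 and 8383. The megakaryocyte markers (6 of 6 listed) summed to 1238 and 1276 against 530 to 1090. The dendritic cell markers (5 of 6 listed, Siglech not listed) summed to 1115 and 910 against 367 to 520. Of these 5, 4 had a negative and 1 a positive sign, with H2-Aa lower by limma's test. Flt3, 1 of the 5, was also counted among the HSPC markers. Of the eosinophil and mast cell markers (6 of 6 listed, 1335 and 1160 against 898 to 1203), 3 had a positive and 3 a negative sign. Epx and Prg2 were lower by limma's test, and of 7 T and NK cell markers only Nkg7 was listed. Without NrasG12D library 3, all 7 B cell, all 7 erythroid and 5 of 7 granulocyte and monocyte markers passed, all higher. Passing lower were 8 of 10 HSPC, 4 of 6 megakaryocyte, 3 of 6 eosinophil and mast cell and 4 of 5 dendritic cell markers. H2-Aa, Epx and Prg2 were among them, and Nkg7 did not pass. Of all genes 37.4% passed in that fit. No listed marker was at 0 in any library. Their part in the differences at Tnfrsf14, Gnb1 and Samd11 was not tested, and in sorted populations a change of cell make-up and a change of RNA per cell cannot be told apart.

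Levels were compared between genes per length (normalized CPM per kb of annotated exon). In the Cux1-low libraries the order of the means was Noc2l (157), Nadk (61.1), Gnb1 (59.9), Atad3a (40.8), Ssu72 (29.7), Cdk11b (24.1), Dvl1 (20.3), Tnfrsf14 (2.94) and Samd11 (0.122). Nadk (56.5 and 65.8) and Gnb1 (61.5 and 58.3) overlapped there. In the NrasG12D libraries Gnb1 stood second at 135 per kb, below Noc2l (157) and above Nadk (66.8), and its libraries overlapped those of neither. Tnfrsf14, at 26.6 per kb, overlapped Ssu72 (30.6), Cdk11b (29.4) and Dvl1 (20.4), and Samd11 stayed lowest at 1.53.

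The stretch from the start of Tnfrsf14 to the end of Samd11 (chr4:154921933-156255657) covers 1.33 Mb and ends 100 kb before the last annotated base of the chromosome. It holds 29 other listed genes, taken by position alone. None passed limma's adjusted threshold, 14 had an unadjusted p under 0.05 (48.3%, against 31.4% of all listed genes), and 8 passed in the authors' deposited table (4 higher and 4 lower, 27.6% of the 29, against 16.1% of all genes). Of the 29, 13 had a positive and 16 a negative sign, with a median log2 fold change of -0.08 beside 0.00 over all 11352 genes. The groups did not overlap in 21 of the 29 (72.4%), 12 with NrasG12D above and 9 with NrasG12D below, against 53.5% of all listed genes (26.5% above and 27% below). Without NrasG12D library 3, 14 passed (7 higher and 7 lower), 48.3% of them, beside the 37.4% of all genes given above. The genes between Tnfrsf14 and Samd11 thus lay on both sides of 0.

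The other genes of the stretch with the largest log2 fold changes lay on both sides of 0. Fam132a, which encodes a secreted C1q and TNF related protein, had 216 and 252 normalized CPM against 89.0, 105.5 and 45.3 (log2 fold change -1.62, SE 0.33, limma adjusted p = 0.0601). Tnfrsf18, which encodes the TNF receptor superfamily member GITR, had 39.7 and 39.1 against 16.6, 13.98 and 21.3 (log2 fold change -1.16, SE 0.19, limma adjusted p = 0.0508). These were lower in every NrasG12D library although they lie between Gnb1 and Samd11, which were higher. Mib2, a ubiquitin ligase gene, was at 63.8 and 77.0 against 40.0, 36.7 and 50.2 (limma adjusted p = 0.0717). Mrpl20, a mitochondrial ribosomal protein gene, was at 71.1 and 73.5 against 125, 125 and 97.2 (limma adjusted p = 0.0632). Agrn, which encodes agrin, was at 7.55 and 8.47 against 13.5, 15.9 and 11.3 (limma adjusted p = 0.0892), and Mxra8 was at 4.02 and 5.97 against 1.95, 2.51 and 3.71 (limma adjusted p = 0.153). All but Mxra8 of these 6 passed in the authors' deposited table. Without NrasG12D library 3 all 6 passed limma's threshold in the same directions, with adjusted p = 0.00179 for Fam132a (log2 fold change -1.26), 0.00226 for Tnfrsf18 (-1.31), 0.00519 for Mib2, 0.00268 for Mrpl20, 0.0143 for Agrn and 0.0315 for Mxra8.

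**Figure D2:**
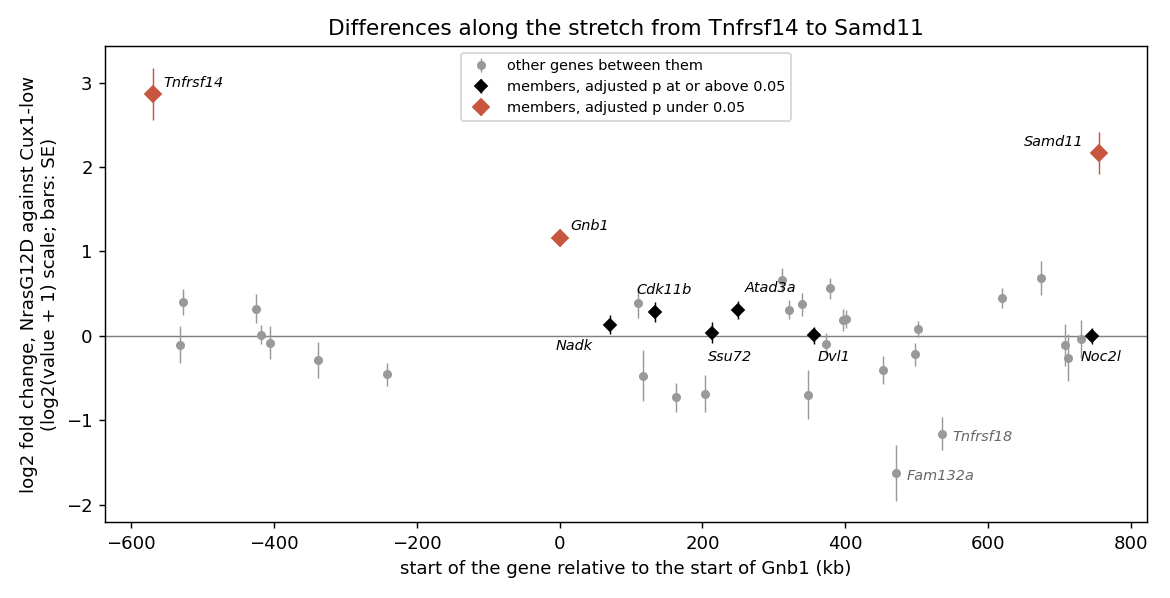
Log2 fold change (log2(value + 1) scale, bars SE) of each listed gene by the distance of its start from the start of Gnb1 in kb, with the 9 members as diamonds and the other 29 genes as grey circles. Tnfrsf14 (2.87), Gnb1 (1.16) and Samd11 (2.16) stand above genes that scatter on both sides of 0, with Fam132a (-1.62) lowest.

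**Figure D3:**
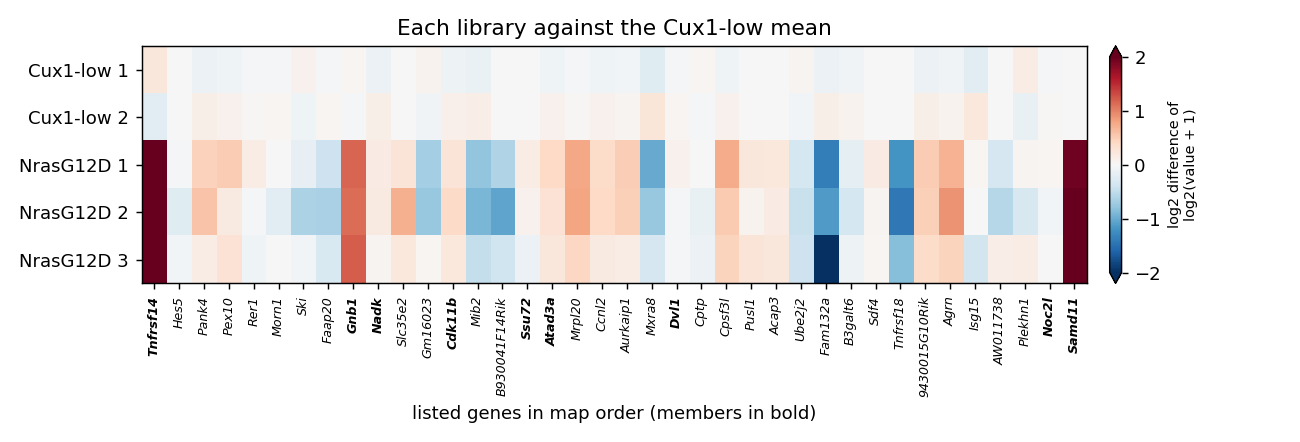
Difference of each library from the Cux1-low mean (log2 of value + 1, colours capped at the ends of the scale) for the 38 listed genes of the stretch in map order. Tnfrsf14, Gnb1 and Samd11 are high in all 3 NrasG12D libraries, separated by genes of either sign, and Fam132a and Tnfrsf18 are low in all 3.

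Between Tnfrsf14 and Gnb1 lay 563 kb with 7 listed genes, and between Gnb1 and Samd11 lay 688 kb with 28. None of these genes was called by limma. Of all listed genes only 1.13% were called, so nothing is read from that count. Without NrasG12D library 3, Atad3a and 14 of the 29 other genes of the stretch passed, against 37.4% of all genes. Over the genome, 29 genes were called higher. Among stretches of 1.33 Mb that begin at such a gene, 3 held 3 called genes, and the one from Tnfrsf14 was 1 of these. That length is the span from Tnfrsf14 to Samd11, which were picked by their values. The count of the stretch from Tnfrsf14 was therefore fixed by the choice, and nothing is read from it. The other stretches with 3 called genes began at Ntn4 on chromosome 10 and at Hspa1b on chromosome 17, and both were named after their values were seen.

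Gnb1 was next set beside the other G protein subunits. In the lists from here on, counts of an unadjusted p under 0.05 are read against 31.4% of all genes, counts in the authors' deposited table against 6.97% higher and 9.14% lower, and counts without NrasG12D library 3 against 37.4%. Of 12 listed beta and gamma genes, Gnb1 was the 1 that passed limma's threshold, and the median log2 fold change of the 11 others was 0.02 (0 called by limma, 5 with an unadjusted p under 0.05, and 1 higher and 1 lower in the authors' deposited table). With that library left out, 5 of the 11 passed (2 higher and 3 lower), among them Gnb2 and Gnb5 but not Gnb4. Another beta gene, Gnb2, had 225 and 237 normalized CPM against 326, 291 and 273 (log2 fold change 0.36, SE 0.11, limma adjusted p = 0.0978). Gnb4 was at 153 and 107 against 123, 107 and 167. Gnb5 was at 13.97 and 16.9 against 6.92, 3.02 and 9.96. These 3 were named for their family and not by the naming rule. Per length, Gnb1 made up 42.7% and 41.1% of the transcripts of Gnb1, Gnb2, Gnb4 and Gnb5 in the Cux1-low libraries and 55.5%, 57.9% and 59.0% in the NrasG12D libraries. The summed level of the 4 was 144 and 142 normalized CPM per kb for Cux1-low and 242, 226 and 236 in the NrasG12D libraries. Gnb1 thus passed from near parity with Gnb2 to more than every other beta gene put together.

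The other partners of the beta subunit gave no limma call. Gnb2l1, which encodes the beta-like scaffold RACK1, was at 623 and 617 normalized CPM against 969, 943 and 808 (log2 fold change 0.54, limma adjusted p = 0.0676). The gamma subunit gene Gng11 was at 46.1 and 62.4 against 15.4, 13.3 and 35.7 (log2 fold change -1.41, limma adjusted p = 0.0846). Of 11 alpha subunit genes none passed limma (1 had an unadjusted p under 0.05), none passed in the authors' deposited table, and the median was 0.02. Of 24 effectors and regulators of the beta and gamma pair none passed limma (6 had an unadjusted p under 0.05), 2 were lower in the authors' deposited table, and the median was -0.23. Adrbk2, a receptor kinase that the pair recruits, was at 48.4 and 47.6 against 24.2, 22.7 and 36.6 (limma adjusted p = 0.0818), and Plcb2, a phospholipase C beta, at 150 and 150 against 100, 71.6 and 117 (limma adjusted p = 0.0938). Without NrasG12D library 3, 2 of the 11 alpha genes (1 higher and 1 lower) and 10 of the 24 effectors (1 higher and 9 lower, median -0.35) passed, and so did Gnb2l1, Gng11, Adrbk2 and Plcb2, in the directions given.

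Among TNF receptor genes, Tnfrsf14 was the 1 that passed limma's threshold. Of the 12 other TNF receptor genes listed, 11 had a negative and 1 a positive sign, with a median log2 fold change of -0.53. None of the 12 passed limma (7 had an unadjusted p under 0.05), and 5 were lower in the authors' deposited table, beside 9.14% of all genes lower there. Tnfrsf26 was at 33.2 and 27.1 normalized CPM against 13.1, 12.2 and 17.7 (limma adjusted p = 0.0581). A list around HVEM held genes for ligands and signal transducers, the lymphotoxin gene Ltb and its receptor gene Ltbr, which is also among the 12. The genes of this list (10 of 14 listed) all had a negative sign, with a median of -0.38. None of them passed limma (5 had an unadjusted p under 0.05) and 4 were lower in the authors' deposited table. The lymphotoxin gene Ltb was at 53.4 and 92.2 against 29.6, 22.9 and 36.8 (limma adjusted p = 0.0684) and the adaptor gene Traf1 at 8.77 and 9.72 against 2.46, 2.05 and 4.98 (limma adjusted p = 0.0726). The HVEM ligand gene Tnfsf14 was at 10.7 and 9.68 against 7.03, 4.91 and 9.48, and Btla, Cd160 and Lta were not listed. When library 3 was left out, 9 of the 12 other receptor genes (75%) and 7 of the 10 genes around HVEM (70%) passed, all lower. Among them were Tnfrsf26, Ltb, Traf1 and Tnfsf14. Tnfsf14, Btla, Cd160 and Lta were named for their role and not by the naming rule.

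**Figure D4:**
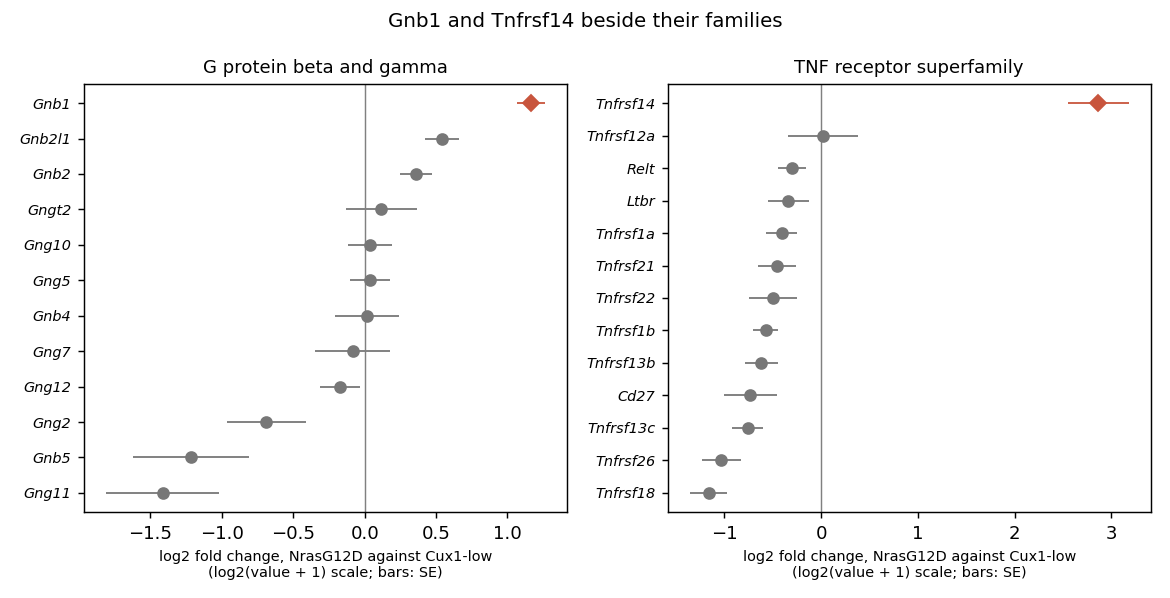
Log2 fold changes (log2(value + 1) scale, bars SE) of the listed G protein beta and gamma genes and TNF receptor superfamily genes, with red diamonds for Gnb1 (1.16) and Tnfrsf14 (2.87), which passed limma's threshold. The other 11 genes at the left lie on both sides of 0, and 11 of the 12 others at the right lie below it.

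Lists built around the 6 neighbours and Samd11 gave no further limma call with all libraries. Besides Noc2l, 14 ribosome assembly genes were listed, all with a positive sign (median log2 fold change 0.24, 6 with an unadjusted p under 0.05, 1 higher in the authors' deposited table). Noc4l was at 127.5 and 134 normalized CPM against 178, 174 and 157 (limma adjusted p = 0.0846) and Bop1 at 220 and 230 against 290, 267 and 282 (limma adjusted p = 0.0956). Noc2l, at a ratio of 0.998, lay below both. Besides Atad3a, 17 genes of the mitochondrial nucleoid and inner membrane were listed, 13 with a positive sign (median 0.28, 6 with an unadjusted p under 0.05, 2 higher in the authors' deposited table), among them Chchd3 at 90.3 and 90.2 against 144, 139 and 115 (limma adjusted p = 0.0726). The log2 fold change of Atad3a, 0.30, lay near that median.

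Besides Cdk11b, 22 genes of CDK11, its cyclins and splicing kinases and factors were listed, 17 with a positive sign (median 0.13, 4 with an unadjusted p under 0.05, 2 higher in the authors' deposited table). Srsf2 was at 1183 and 1220 normalized CPM against 1708, 1637 and 1560 (limma adjusted p = 0.0786). The cyclin gene Ccnl2, which lies within the stretch, was at 173 and 197 against 237, 242 and 209 (limma adjusted p = 0.129) and was named as the partner of Cdk11b. Besides Ssu72, 22 genes of RNA 3′ end processing were listed (17 positive, median 0.13, 4 with an unadjusted p under 0.05, none in the authors' deposited table). Besides Dvl1, 20 WNT pathway genes were listed (8 positive, median -0.23, 4 with an unadjusted p under 0.05, 1 higher and 2 lower in the authors' deposited table), among them the receptor gene Fzd6 at 33.2 and 25.8 against 13.03, 6.11 and 7.41 (limma adjusted p = 0.0525). Besides Nadk, 14 genes of NAD and NADP synthesis were listed (8 positive, median 0.06, 3 with an unadjusted p under 0.05, 1 higher and 2 lower in the authors' deposited table), among them Nnt at 201 and 209 against 128, 94.6 and 133 (limma adjusted p = 0.0581). Besides Samd11, 18 sterile alpha motif and polycomb genes were listed (6 positive, median -0.13, 7 with an unadjusted p under 0.05, 1 lower in the authors' deposited table). In the fit without library 3, the genes that passed were 5 of 14 for ribosome assembly (all higher), 6 of 17 for the mitochondrial list (all higher), 3 of 22 for the CDK11 list (all higher) and 3 of 22 for RNA 3′ end processing (2 higher and 1 lower). They were 10 of 20 for the WNT list (3 higher and 7 lower), 6 of 14 for the NAD list (4 higher and 2 lower) and 7 of 18 for the sterile alpha motif and polycomb list (1 higher and 6 lower). Noc4l, Bop1, Chchd3, Srsf2, Ccnl2, Fzd6, Nnt and Cbx7 were among them. Samd7, a relative of Samd11, was not listed, and Cbx7, a polycomb gene, was at 32.1 and 42.7 against 12.5, 13.4 and 27.9 (limma adjusted p = 0.0977).

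The genes whose profile over the 5 libraries was most like each of the 3 were found by the Euclidean distance between log2(normalized CPM + 1) values centred on each gene's mean. Nearest to Tnfrsf14 was Hebp1 on chromosome 6 (distance 0.320), a haem-binding protein gene at 5.25 and 4.77 normalized CPM against 51.4, 68.2 and 29.3. Next came Ccnb1ip1 on chromosome 14 (0.483), with 0 and 0 against 5.18, 8.33 and 4.80, and Slc30a10 on chromosome 1 (0.657). Samd11 was at a distance of 1.01 from Tnfrsf14 and was the fourth nearest of all listed genes. Nearest to Gnb1 were Rps3a1 on chromosome 3 (0.1998), at 50.4 and 46.8 against 114, 123 and 110, then Tmem242 on chromosome 17 (0.251), at 35.4 and 33.2 against 71.5, 66.1 and 66.0, and Hmgb1 on chromosome 5 (0.311). Rps3a1 and Hmgb1 have near-identical processed copies, so their levels are uncertain. Nearest to Samd11 were Ntn4 on chromosome 10 (0.313), Ifi204 on chromosome 1 (0.403) and Supt16 on chromosome 14 (0.427). Supt16 was at 82.3 and 65.3 normalized CPM against 233, 307 and 261. The added 1 shrinks differences at levels as low as those of Samd11, so which genes lie nearest to Samd11 may depend on that setting. None of these 9 genes lies on chromosome 4, and with 5 libraries such likeness is a description only. Ccnb1ip1, Slc30a10 and Ifi204, like Samd11, were under 1 in both Cux1-low libraries, so the filter of the deposited table fixed their direction.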

How the data were processed

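Per the submitters' processing notes, TopHat, HTSeq and edgeR were used with the builds hg19 and mm10, without versions or roles. The deposited table lists genes above 1 in at least 3 of the 5 libraries (tested on the table), so genes above 1 only in the Cux1-low libraries are not in it. Its library columns are headed CPM, per the file headers, but sum to 971746 to 1026780, so these deposited signal values are called normalized CPM. The authors' deposited log2 fold change, likelihood ratio score, p-value and adjusted p-value per gene were used as given. Every library value was a whole multiple of 1 step within 0.001 of a step, and reads (depth, the read numbers printed and the comparison of replicates) were computed from it. A search over the lowest values alone did not find the step, so no count test was run. Instead, limma 3.58.1 (R 4.3.3) with trended variance was run on log2(normalized CPM + 1) for all 11352 genes, NrasG12D minus Cux1-low, calls being made at 0.05 after Benjamini-Hochberg correction. Requiring 2 libraries at 1 or more removed 0 genes. An exact permutation test of 2 against 3 libraries cannot go below p = 0.2 (2-sided), so none was used. On simulated data for this comparison (11352 genes), 100% of 100 genes changed 1 log2 unit and 100% of 100 changed 2 units were recovered, with 10 false calls. The simulation gave every gene the same low spread, had no library that stood apart, and changed no gene at the lowest levels. In the data 653 genes had a log2 fold change of at least 1 in size, and 128 genes were called. The simulated recovery therefore does not tell how often a change of 1 log2 unit was found here. Coordinates and exon lengths are from GENCODE M21 (mm10), matched to 10941 symbols directly and 354 by RefSeq synonym, with 57 unmatched. Chi-square statistics of the reads exceeded 15 per degree of freedom in each replicate pair (15.3 to 63.8). That is more than sequencing the same library again would give. It does not tell whether libraries share an animal or an RNA sample. The members and the 20 gene lists were chosen with earlier results of these data known. Named were the 9 members, the 6 other genes of the stretch with the largest log2 fold change and a descriptive symbol, list genes past the threshold or from the 2 with the smallest p, and the 3 most alike in profile for Tnfrsf14, Gnb1 and Samd11. Tables were made with pandas 2.3.3 and numpy 2.4.6, and figures with matplotlib 3.10.9, under Python 3.11.15 with scipy 1.17.1. Alternatives were other pseudocounts, filters, scaling, robust moderation, a replicate block and leaving out each library.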

Additional observations from a re-analysis of the deposited data

How the results depend on the processing

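The number of genes called over the whole table (128) was within 1.5 times of the main value with other pseudocounts, filters, scaling and robust moderation, was 3 to 4243 when 1 library was left out, and was 4163 with the replicate number as a block. Among the 29 other genes of the stretch (0 called), 1 passed with median-of-ratios scaling, namely Tnfrsf18 (limma adjusted p = 0.0494), 0 to 14 passed when 1 library was left out, and 15 with the replicate block. The replicate numbers are not said to pair animals: deviations of same-numbered libraries from their group means correlated at -0.192 (number 1) and -0.00354 (number 2) over genes, and NrasG12D library 3 has no partner, so the block leaves it out of the comparison. Tnfrsf14 (2.62 to 3.13), Gnb1 (1.13 to 1.20) and Samd11 (2.03 to 2.27) kept their direction with 1 library left out, lost their call in 3, 3 and 4 of 5 such fits, and kept it in the 7 other alternatives. The near-zero values of Ssu72 (-0.017 to 0.116), Dvl1 (-0.0316 to 0.0405) and Noc2l (-0.0332 to 0.0266) changed sign with the library left out, and those of Nadk (0.02 to 0.24), Cdk11b (0.19 to 0.38) and Atad3a (0.21 to 0.39) did not. The causes were not tested. With 9 reads of Samd11 in each Cux1-low library, its ratio is the least certain.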

Other observations

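The stretch of the same length just before Tnfrsf14 holds 9 listed genes, of which 0 passed limma (3 had an unadjusted p under 0.05), and 1 was higher and 1 lower in the authors' deposited table. Both were chosen after their values were seen. Smim1, a red cell membrane protein gene, had 14.5 and 16.1 normalized CPM in the Cux1-low pair against 46.9, 57.8 and 26.2 in NrasG12D (log2 fold change 1.39, limma adjusted p = 0.0695). Prdm16, a transcription factor gene needed by haematopoietic stem cells, was at 24.5 and 24.6 against 4.72, 5.65 and 12.8 (log2 fold change -1.66, limma adjusted p = 0.0684). Without NrasG12D library 3, 4 of the 9 passed (3 higher and 1 lower), Smim1 and Prdm16 among them. In both, NrasG12D library 3 lay between the groups, as it did for Tnfrsf14 but not for Gnb1. Over the last 10 Mb of the chromosome, 103 genes were listed, and the 3 called by limma were Tnfrsf14, Gnb1 and Samd11. These 3 were picked by their values in the same comparison, so nothing is read from that count. With the 3 included, 14 of the 103 were higher and 13 lower in the authors' deposited table (26.2%, against 16.1% of all genes). The groups did not overlap in 70 of the 103 (68.0%, against 53.5% of all listed genes). The remaining 656 listed genes of chromosome 4 outside the stretch from Tnfrsf14 to Samd11 gave 0 higher and 7 lower calls (1.07%, near the share of all genes). For the last 10 Mb and for these 656 genes, no count without NrasG12D library 3 is given.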
